A study of Mus musculus with 8 samples.

Results

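Iron uptake, storage and export genes were followed in nuclear RNA of mouse forebrain excitatory neurons during acute seizure. The set holds 8 genes of the 55471 in the exonic count table: Slc40a1, Slc11a2, Tfrc, Fth1, Ftl1, Aco1, Ireb2 and Slc25a37. They were chosen by symbol as iron handling genes, and the choice followed from the fall of Slc40a1 in pilocarpine-treated samples, in exonic and in intronic counts. The values of Slc40a1 in those comparisons are therefore a description and carry no test. All 8 genes passed the filter on low counts in the exonic table, and all but Fth1, which had 0 to 9 intronic counts per library, passed it in the intronic columns.

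Both groups were male C57BL/6J mice of the genotype CaMKIIalpha-Cre:SUN1-sfGFP, 6-8 weeks old, with 4 samples per group. Every mouse first received scopolamine methyl nitrate at 1 mg/kg, an antagonist of muscarinic receptors that does not readily enter the brain. After 30 min the Pilo group received pilocarpine hydrochloride at 340 mg/kg, a muscarinic agonist that induces seizures, and the Mock group received saline. Pilo mice were studied 100 min into the seizures and were kept only at a Racine score of 3 to 5, a behavioural scale of seizure severity. The drug and the seizure cannot be told apart in this design. Nuclei were captured by the SUN1-sfGFP tag, a green fluorescent nuclear envelope protein switched on by a Cre recombinase under the CaMKIIalpha promoter, so cytoplasmic RNA and proteins were not measured. Whether every sample came from its own mouse is not stated in the labels. The p-values therefore refer to variation among the 8 samples, part of which can be technical.

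Iron enters most cells bound to transferrin through the transferrin receptor, and leaves the endosome through a divalent metal transporter. What is not used is stored in ferritin, a shell of heavy and light chains, and ferroportin is the only known cellular iron exporter in mammals. A pair of RNA-binding proteins, encoded by Aco1 and Ireb2, bind a hairpin called the iron-responsive element when iron is scarce. In the 5′ UTR of an mRNA this blocks translation, and in the 3′ UTR of the transferrin receptor mRNA it protects the message from decay.

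The hairpins are shown because they are what the products of Aco1 and Ireb2 bind. Those found lie in the 5′ UTR of some members and in the 3′ UTR of Tfrc. A pattern of a bulged C, 5 paired bases, the loop CAGTGN and the 5 opposite bases, with G-T pairs allowed, was searched on the sense strand of GENCODE vM21 transcripts (GRCm38). It was found in 4 of the 8 members, and in the 5′ UTR of 0.142% and the 3′ UTR of 0.584% of 21901 protein-coding genes. The 29 bases around each match follow as DNA letters, 5′ to 3′, with the loop of 6 bases in capitals.
Slc40a1, 5′ UTR: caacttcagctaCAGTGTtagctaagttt
Fth1, 5′ UTR: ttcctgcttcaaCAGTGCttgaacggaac
Ftl1, 5′ UTR: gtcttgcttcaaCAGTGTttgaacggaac
Tfrc, 3′ UTR, start 32631219: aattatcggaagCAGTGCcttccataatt
Tfrc, 3′ UTR, start 32631598: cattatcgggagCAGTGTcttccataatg
Tfrc, 3′ UTR, start 32631663: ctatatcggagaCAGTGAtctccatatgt
Tfrc, 3′ UTR, start 32631710: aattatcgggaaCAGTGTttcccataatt

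The Slc40a1 match lies in exon 1 at chr1:45925465-45925493 on the minus strand, and the Ftl1 match in exon 1 at chr7:45459779-45459807 on the minus strand. The Fth1 match lies at chr19:9982732-9982760 on the plus strand, in exon 2 of the transcript Fth1-203. The 4 Tfrc matches lie in exon 19 on the plus strand, at chr16:32631219-32631247, chr16:32631598-32631626, chr16:32631663-32631691 and chr16:32631710-32631738. This pattern was not found in Slc11a2, Aco1, Ireb2 or Slc25a37, which says only that these letters are not in the transcripts searched. A hairpin of another form would be missed, so these genes cannot be said to lack an iron-responsive element. A match is a description of the sequence and not a measured binding site.

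Total exonic counts per library were 29356788 to 36161448. In a second table, which held both regions, intronic totals were 11928054 to 16703475. Levels are given as CPM, the count divided by the TMM-scaled library size, and changes as the log2 fold change of Pilo over Mock with its standard error (SE). A change was called at an adjusted p of at most 0.05 over all genes tested, in edgeR's quasi-likelihood test. Among 19176 genes tested in exons, 15.6% were called higher in Pilo and 16.2% lower, so a call was common among all genes. The excitatory markers Camk2a and Slc17a7 led their list at mean Mock levels of 1325 and 973 CPM, and the summed excitatory markers stood at 2590 to 3270 CPM in Mock and 2933 to 3530 CPM in Pilo. No marker of any cell type list was at 0 in all libraries. In bulk nuclei, fewer cells of a type and less RNA per cell cannot be told apart.

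Per length of exon, the members spanned a wide range of exonic levels in Mock. Tfrc was highest at 33.8 ± 2.40 CPM per kb (SD, n = 4), followed by Slc25a37 at 26.3 ± 1.68, Fth1 at 24.1 ± 2.60, Slc11a2 at 19.1 ± 1.16, Ftl1 at 18.3 ± 0.613, Ireb2 at 13.9 ± 0.421 and Aco1 at 7.33 ± 0.324. Slc40a1 was the lowest at 0.430 ± 0.0845 CPM per kb. The libraries of Slc25a37 and Fth1 overlapped, as did those of Slc11a2 and Ftl1. These lengths are the union of annotated exons, so the order depends on which transcripts the neurons use.

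**Figure D1:**
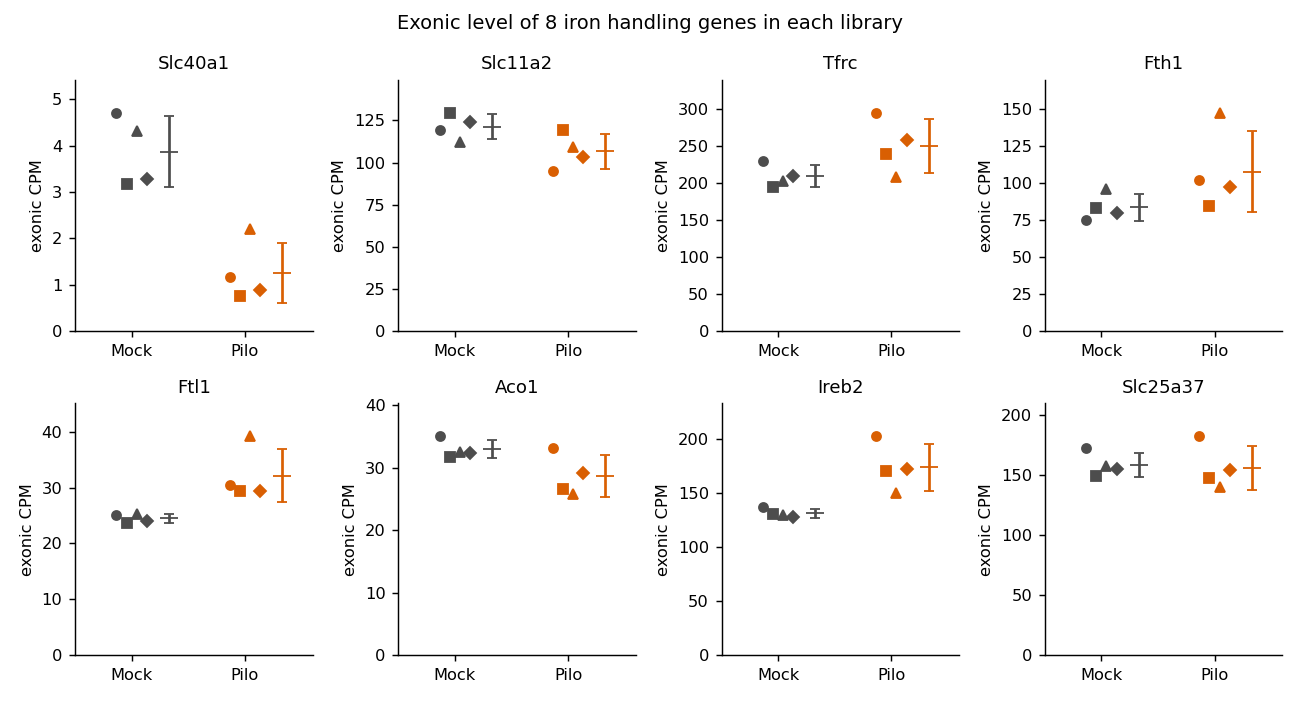
Exonic CPM of each of the 8 members (vertical axis, starting at 0) in the 4 Mock and 4 Pilo libraries, 1 panel per gene, with the mean and SD beside the points. Slc40a1 lies between 3.17 and 4.71 CPM in Mock and between 0.751 and 2.20 CPM in Pilo, and Ireb2 and Ftl1 lie higher in Pilo with no overlap of the groups.

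Slc40a1 encodes ferroportin, the iron exporter (ENSMUSG00000025993, chr1:45908068-45926523, minus strand). Its exonic level was 4.71, 3.17, 4.31 and 3.29 CPM in Mock replicates 1 to 4, and 1.17, 0.751, 2.20 and 0.895 CPM in Pilo replicates 1 to 4. Every Pilo library lay below every Mock library. The means were 3.87 ± 0.760 and 1.25 ± 0.654 CPM (SD, n = 4), a log2 change of -1.62 (SE 0.29) and 3.08-fold lower in Pilo. These values rest on 98 to 162 counts per Mock library and 23 to 69 per Pilo library. Pilo replicate 3 was the highest of its group, and without it the change was -2.02.

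Intronic reads of Slc40a1, which come from unspliced RNA, were lower as well. They numbered 78, 55, 37 and 38 in the Mock libraries and 4, 16, 7 and 5 in the Pilo libraries. The log2 change was -2.44 (SE 0.42), over intronic levels of 3.53 ± 1.39 CPM in Mock and 0.657 ± 0.488 CPM in Pilo (SD, n = 4). The groups did not overlap in introns either. The second table numbers the libraries otherwise: deviations over 11969 genes matched its columns 2 and 3 to replicates 3 and 2 of the exonic table in both groups, so the Pilo library with 16 intronic counts is the one with 69 exonic counts. Numbers beside intronic values are those of the second table.

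Among the uptake genes, Tfrc encodes the transferrin receptor (ENSMUSG00000022797, chr16:32608920-32632794, plus strand). Its exonic level was 229, 195, 202 and 209 CPM in Mock and 295, 239, 208 and 258 CPM in Pilo. Only Pilo replicate 3 lay within the range of Mock. The log2 change was 0.26 (SE 0.10) and did not pass the test, with an adjusted p of 0.0698 in edgeR. With the replicate number as a block, since same-numbered libraries deviated together, the adjusted p was 0.00151 in edgeR. It also passed without Mock replicate 1, at an adjusted p of 0.0488, and without Pilo replicate 3, at 0.0117, in edgeR.

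Intronic levels of Tfrc were 115, 112, 88.8 and 99.7 CPM in Mock and 158, 103, 113 and 121 CPM in Pilo, and they overlapped. The log2 change of 0.26 (SE 0.13) equalled the exonic one, with an adjusted p of 0.131 in edgeR and 0.0159 with the block. The 4 hairpins printed above sit in the 3′ UTR of this mRNA, and neither count separates transcripts by their 3′ ends.

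Slc11a2 encodes the divalent metal transporter that moves iron out of the endosome (ENSMUSG00000023030, chr15:100387898-100425072, minus strand). Its exonic level was 119, 130, 112 and 124 CPM in Mock and 95.02, 120, 109 and 103 CPM in Pilo. The groups overlapped through Pilo replicate 2. The log2 change was -0.19 (SE 0.08), with an adjusted p of 0.108 in edgeR and 0.0109 with the block. It also passed in edgeR without 1 library, Pilo replicate 2, where the exonic change was -0.24 and the adjusted p 0.0469. Its intronic level was 118 ± 7.19 CPM in Mock and 120 ± 10.6 CPM in Pilo (SD, n = 4), a log2 change of 0.03 (SE 0.10) and an adjusted p of 0.840 in edgeR.

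The ferritin chains both had higher means in Pilo. Ftl1, the light chain (ENSMUSG00000050708, chr7:45457944-45459884, minus strand), had an exonic level of 25.1, 23.6, 25.2 and 24.0 CPM in Mock and 30.5, 29.3, 39.2 and 29.5 CPM in Pilo. The groups did not overlap, and Pilo replicate 3 stood above the other Pilo libraries. Ftl1 rose by a log2 change of 0.39 (SE 0.10), with an adjusted p of 0.00878 in edgeR. Without 1 library at a time the exonic change was 0.30 to 0.44 and always passed.

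Fth1, the heavy chain, which carries the ferroxidase activity (ENSMUSG00000024661, chr19:9980598-9985098, plus strand), was at 74.9, 83.5, 96.0 and 79.9 exonic CPM in Mock. It was at 102, 84.5, 148 and 97.1 CPM in Pilo, where replicate 3 was again the highest and replicate 2 lay within the range of Mock. The log2 change was 0.37 (SE 0.15), with an adjusted p of 0.0905 in edgeR and 0.00368 with the block. The change was 0.19 without Pilo replicate 3, with an adjusted p of 0.175 in edgeR, and without Pilo replicate 2 it was 0.47, with an adjusted p of 0.0314.

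Ftl1 was the ferritin chain with usable intronic counts. They gave 17.6, 15.4, 20.9 and 18.0 CPM in Mock and 25.4, 25.0, 24.4 and 22.3 CPM in Pilo, with no overlap. The intronic rise was 0.43 (SE 0.13), with an adjusted p of 0.0127 in edgeR. Reads of related loci were few. The 11 Fth-type copies in the exonic table had at most 34 counts in any library and the 3 Ftl-type copies at most 11, beside 2257 to 4632 counts for Fth1 and 716 to 1230 for Ftl1. Ftl1 shares its locus with Gm10252 on the other strand, which had 20 to 51 counts. The strand setting of the counting is not given in the sources used here, and the second table gave Ftl1 1093 to 1927 exonic counts, so its level is uncertain.

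The exonic changes of the sensors had opposite signs, and only that of Ireb2 passed the test without the block. Ireb2 encodes iron regulatory protein 2, which is degraded when iron is plentiful (ENSMUSG00000032293, chr9:54863789-54912530, plus strand). Its exonic level was 137, 131, 130 and 128 CPM in Mock and 203, 171, 150 and 173 CPM in Pilo. The groups did not overlap, and all 4 Mock libraries lay close together. Ireb2 rose by 0.41 (SE 0.09) on the log2 scale, with an adjusted p of 0.00341 in edgeR, and by 0.33 to 0.48 without 1 library at a time. Its intronic level was 103, 107, 82.6 and 91.7 CPM in Mock and 158, 122, 121 and 131 CPM in Pilo, a rise of 0.47 (SE 0.11) with an adjusted p of 0.00416 in edgeR.

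Aco1 encodes iron regulatory protein 1, a cytosolic aconitase while it holds an iron-sulfur cluster (ENSMUSG00000028405, chr4:40143081-40198338, plus strand). Its exonic level was 35.1, 31.7, 32.6 and 32.4 CPM in Mock and 33.2, 26.7, 25.8 and 29.2 CPM in Pilo. Pilo replicate 1 lay within the range of Mock and the other Pilo libraries below it. The exonic log2 change was -0.20 (SE 0.09), with an adjusted p of 0.116 in edgeR, 0.0184 with the block, and 0.0227 without Pilo replicate 1, where the change was -0.27.

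Intronic levels of Aco1 were 76.8, 67.0, 69.1 and 63.1 CPM in Mock and 64.9, 52.1, 52.9 and 50.6 CPM in Pilo. Intronic CPM is scaled to intronic totals, so it cannot be set beside exonic CPM as an amount. In the second table Aco1 had mean counts of 1020 intronic and 1059.5 exonic in Mock, and 698 and 917.5 in Pilo. Its intronic counts fell by 0.32 (SE 0.11) on the log2 scale, with an adjusted p of 0.0282 in edgeR. The groups overlapped through 1 library of each. The call ended on leaving out Mock replicate 1 (adjusted p 0.0970), Pilo replicate 2 (0.0683), Pilo replicate 3 (0.0698) or Pilo replicate 4 (0.0929), while the change stayed between -0.41 and -0.27.

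Slc25a37 encodes mitoferrin-1, which carries iron into mitochondria (ENSMUSG00000034248, chr14:69241848-69285112, minus strand). Its exonic level was 173, 149, 158 and 155 CPM in Mock and 182, 147, 140 and 154 CPM in Pilo, and the groups overlapped. The exonic log2 change was -0.03 (SE 0.09), with an adjusted p of 0.861 in edgeR. Its intronic level was 30.7, 34.2, 30.4 and 27.1 CPM in Mock and 19.3, 16.0, 13.9 and 16.6 CPM in Pilo, with every Pilo library below every Mock library. The intronic counts fell by 0.89 (SE 0.13) on the log2 scale, 1.86-fold, with an adjusted p of 9.8e-05 in edgeR. Its 4 overlapping genes in the annotation had 0 counts in every library of the exonic table.

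Counted over the members other than Slc40a1, 2 of 7 rose in exonic counts (Ftl1 and Ireb2) and none fell, while 15.6% of all genes tested were called higher and 16.2% lower. With the block 4 of 7 were called higher, adding Tfrc and Fth1, and 2 lower, Slc11a2 and Aco1, where 23.8% and 23.2% of all genes were called. The exonic columns of the second table gave the same calls for Ftl1 (0.35, adjusted p 0.0223 in edgeR) and Ireb2 (0.34, adjusted p 0.0111) and no other, beside 16.5% of 14239 genes higher and 17.5% lower. There Ftl1 did not pass without Mock replicate 4 (0.34, adjusted p 0.0555). In introns 2 of the 6 tested rose and 2 fell, against 19.6% and 21.9% of 13318 genes.

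Exonic and intronic counts of the same libraries were compared directly, as the exonic minus the intronic log2 change. For Slc25a37 this difference was 0.85 (SE 0.09), with an adjusted p of 5.48e-05 in edgeR: its introns fell while its exons did not pass a test. For Slc11a2 the difference was -0.24 (SE 0.06), with an adjusted p of 0.0128 in edgeR and 0.0528 with the block. It was 0.01, with an adjusted p of 0.944, where each library had 1 scaling factor for both regions. For Tfrc (-0.02), Ftl1 (-0.10), Aco1 (0.10) and Ireb2 (-0.13) the difference did not pass, with adjusted p values from 0.293 to 0.880 in edgeR. Thus 1 of the 6 lay above and 1 below, beside 13.5% and 12.8% of 13047 genes. For Slc40a1 the difference was 0.78 (SE 0.32), given as a description.

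The scaling matters to this comparison. With 1 factor per library the median difference of all genes moved from 0.01 to 0.26, and 93.5% of called genes lay above against 51.3% with a factor per region. Under it the difference was 1.09 for Slc25a37. It was 0.34 for Aco1 and 0.23 for Tfrc, beside the shift of 0.26 in all genes, with adjusted p values of 0.00345 and 0.0349 in edgeR.

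**Figure D2:**
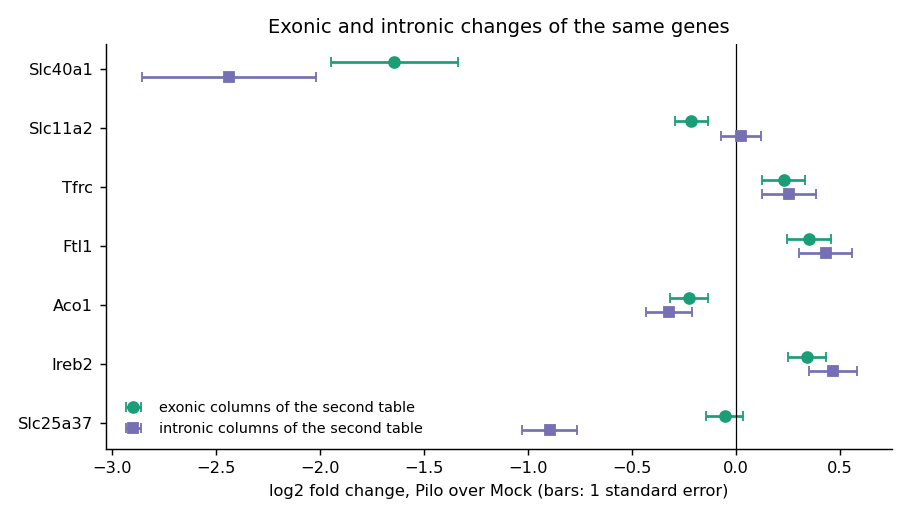
Log2 change of Pilo over Mock in exonic and in intronic counts of the second table for the 7 members tested in both regions (bars of 1 SE). Slc25a37 has an intronic change of -0.89 beside an exonic change near 0, Slc40a1 is lowest in both regions, and Ftl1 and Ireb2 are above 0 in both.

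The same reads can be given as the intronic share of a gene's exonic and intronic counts in each library. For Slc25a37 the share was 7.63%, 8.999%, 8.25% and 7.76% in Mock and 4.05%, 4.09%, 3.76% and 4.11% in Pilo. The Pilo libraries lay close together and all below Mock, with means of 8.16% ± 0.619 and 4.00% ± 0.165 (SD, n = 4; exact two-sided permutation test, p = 0.0286, the smallest 4 against 4 samples can give, and 0.0857 adjusted over the 6 genes tested). For Aco1 the share was 49.1% ± 0.954 in Mock and 43.1% ± 1.79 in Pilo, also without overlap and with the same exact p. Neither passed after adjustment, but with so few samples a gene that separated the groups fully could not pass alone. With the share taken from CPM scaled within each region, the difference of Aco1 was -1.51 percentage points in place of -5.91, and that of Slc25a37 was -6.08 in place of -4.16 (adjusted exact permutation p = 0.343 and 0.0857). Over all genes the share was 32.97% ± 0.799 in Mock and 30.0% ± 0.627 in Pilo, so the share was lower over all genes as well.

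In Tfrc the share was 18.6% in Mock and 16.3% in Pilo (exact permutation p = 0.0571, adjusted 0.114). In Slc11a2 it was 30.9% and 30.8%, in Ftl1 18.0% and 16.6%, and in Ireb2 26.5% and 24.9%, with exact permutation p values of 0.943, 0.457 and 0.286. From CPM the share was higher in Pilo for all 4, by 0.298 points in Tfrc, 4.17 in Slc11a2, 1.48 in Ftl1 and 2.23 in Ireb2, and none passed after adjustment. For Slc40a1 it was 29.4% ± 4.36 in Mock and 16.8% ± 6.02 in Pilo, on the few counts given above and without a test.

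**Figure D3:**
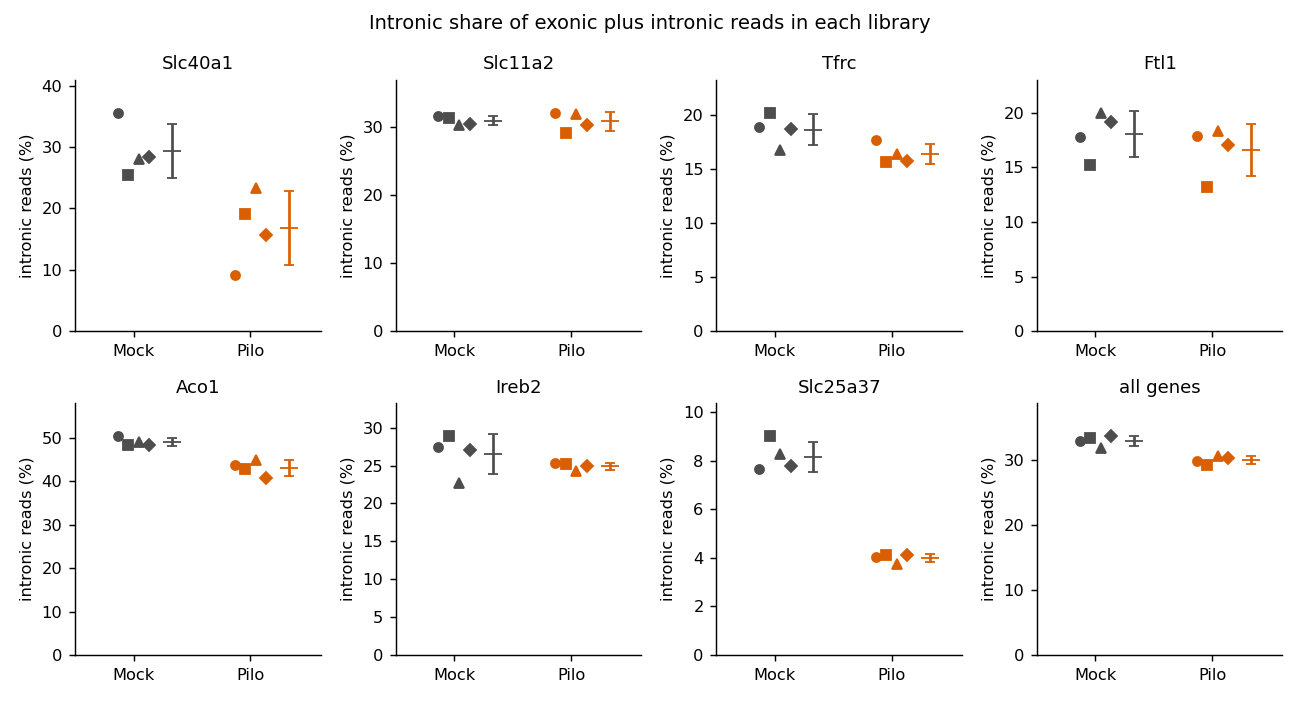
Intronic share of exonic plus intronic counts (vertical axis, percent, starting at 0) in each Mock and Pilo library for 7 members and for all genes summed, with mean and SD. Slc25a37 drops from 7.63% to 8.999% in Mock to 3.76% to 4.11% in Pilo, and the sum over all genes is also lower in Pilo.

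Other genes of iron handling were taken from 6 lists of 110 names, of which 100 were tested in the exonic table. Of these 20 rose and 11 fell, near the 15.6% and 16.2% of all genes, with a median log2 change of 0.07 against 0.00 over all genes. With the replicate block 34 were called higher and 20 lower, where 23.8% and 23.2% of all genes were called. The number that fell was 7 without Mock replicate 3 or without Pilo replicate 4.

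For uptake and reduction, 2 of 17 rose and none fell, beside 15.6% and 16.2% of all genes. The block gave 4 called higher, beside 23.8% of all genes. Exoc6, an exocyst subunit needed for recycling of the transferrin receptor, rose by 0.50 (SE 0.08), and Snx3, a sorting nexin of the same route, by 0.33 (SE 0.09), with adjusted p values of 0.000382 and 0.0160 in edgeR. Without Mock replicate 4 the adjusted p of Snx3 was 0.0549. Trf, transferrin itself, was at 22.7 ± 1.87 CPM in Mock and 22.5 ± 7.86 CPM in Pilo (SD, n = 4).

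For storage, 1 of 5 rose and 2 fell, beside 15.6% and 16.2% of all genes. Pcbp1, an iron chaperone that loads ferritin, rose by 0.41 (SE 0.07; adjusted p 0.000695 in edgeR). Its relative Pcbp2 fell by 0.27 and Herc2, a ubiquitin ligase acting on the ferritin receptor Ncoa4, by 0.23, with adjusted p values of 0.0247 and 0.0451 in edgeR. Neither call was firm. The Herc2 call ended on leaving out any library but Mock replicate 2 or Pilo replicate 1 (adjusted p up to 0.140 in edgeR), and the Pcbp2 call on leaving out Mock replicate 2, Mock replicate 3, Pilo replicate 1 or Pilo replicate 4 (up to 0.0891). Both had intronic counts that rose, Herc2 by 0.58 and Pcbp2 by 0.26, so their exonic change lay below the intronic one by 0.84 and 0.54. Ncoa4, which carries ferritin to the lysosome, fell in introns by 0.66 (adjusted p 0.00220 in edgeR), and its exonic change was -0.25 (adjusted p 0.0911, and 0.0184 with the block).

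For export and hepcidin signalling, 3 of 11 rose and none fell, beside 15.6% and 16.2% of all genes. The block gave 5 called higher, beside 23.8% of all genes. The 3 that rose without the block were the BMP receptors Acvr1, up by 0.85 (SE 0.09), and Bmpr1a, up by 0.62 (SE 0.10), and Tmprss6. The hepcidin-suppressing protease gene Tmprss6 was up by 1.25 (SE 0.25) at a low level of 0.910 ± 0.186 CPM in Mock (SD, n = 4). Cp, the ferroxidase ceruloplasmin that works with ferroportin, was at 2.60 ± 0.669 exonic CPM in Mock and 4.69 ± 2.60 in Pilo (SD, n = 4), with an exonic adjusted p of 0.112 in edgeR and 0.00118 with the block. Its intronic counts rose by 1.42 (adjusted p 0.00212 in edgeR). The difference of -0.61 passed at an adjusted p of 0.0462, which was 0.126 with the block and passed without Pilo replicate 1 alone among the 8 libraries left out in turn. The related ferroxidase gene Heph was at 1.09 CPM in both groups. The ferroportin ligand gene Hamp had too few counts to be tested.

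For iron sensing, 5 of 13 rose and none fell, beside the 15.6% and 16.2% of all genes. The number was 3 on leaving out Mock replicate 2, Mock replicate 4, Pilo replicate 1 or Pilo replicate 4, and with the block 10 were called higher, beside 23.8% of all genes. Ndfip1, an adaptor of ubiquitin ligases that act on the Slc11a2 protein, rose by 0.62 (SE 0.07) in exons and by 1.49 (SE 0.09) in introns, with adjusted p values of 5.22e-05 and 6.27e-08 in edgeR. The iron-dependent prolyl hydroxylases Egln2 and Egln1 rose by 0.55 and 0.36. Skp1a, a subunit of the ligase that degrades Ireb2, rose by 0.26 (adjusted p 0.0322 in edgeR), a call that ended on leaving out any library but Mock replicate 3 or Pilo replicate 2 (adjusted p up to 0.0995). Fbxl5, the iron-sensing subunit of that ligase, had an exonic change of 0.15 (adjusted p 0.287 in edgeR, 0.0203 with the block) and rose by 0.48 in introns (adjusted p 0.00480). Of the 13 genes 4 had an exonic change below the intronic one and none above, beside 12.8% and 13.5% of all genes. For Ndfip1, Ndfip2, Fbxl5 and Egln2 the difference was -0.89, -0.54, -0.35 and -0.28. That of Egln2 had an adjusted p of 0.0105 in edgeR and did not pass with the block (0.0537). With 1 scaling factor per library Fbxl5 no longer passed (adjusted p 0.154 in edgeR).

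For mitochondrial iron and iron-sulfur clusters, 7 of 33 rose and 5 fell, beside 15.6% and 16.2% of all genes. The block gave 12 called higher and 10 lower, beside 23.8% and 23.2% of all genes. The chaperone gene Hspa9 rose by 0.52 (SE 0.07) while its partner Hscb fell by 1.20 (SE 0.16), both in cluster transfer, with adjusted p values of 8.6e-05 and 0.000148 in edgeR. Bola3, a late assembly factor, fell by 0.62 (SE 0.10). Exonic changes lay above intronic ones for 8 of 29 genes and below for none, beside 13.5% and 12.8% of all genes. Cisd1 (0.94), Cisd3 (0.56), Glrx5 (0.56), Ciao2a (0.51) and Nfu1 (0.42) were among them, each with introns that fell. The exonic changes of these 5 did not pass, but with the block Cisd1 was called higher (0.26) and Nfu1 (-0.29) and Cisd3 (-0.26) lower, with adjusted p values of 0.0152, 0.00603 and 0.0281 in edgeR. Slc25a28, the other mitoferrin gene, had an exonic change of 0.24 (SE 0.09; adjusted p 0.0519 in edgeR, 0.000595 with the block) and was not tested in introns.

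For heme, 2 of 21 rose and 4 fell, beside 15.6% and 16.2% of all genes. The block gave 7 called lower, beside 23.2% of all genes. The pathway enzyme gene Uros fell by 0.87 (SE 0.09) and Urod by 0.50 (SE 0.12). The heme exporter gene Flvcr1 fell by 0.63 (SE 0.08), with an adjusted p of 7.52e-05 in edgeR. Named after its value was seen, Hmox1, the inducible enzyme that releases iron from heme, rose from 1.76 ± 0.490 to 3.26 ± 0.404 CPM (SD, n = 4; log2 change 0.88, SE 0.22, adjusted p 0.00720 in edgeR).

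**Figure D4:**
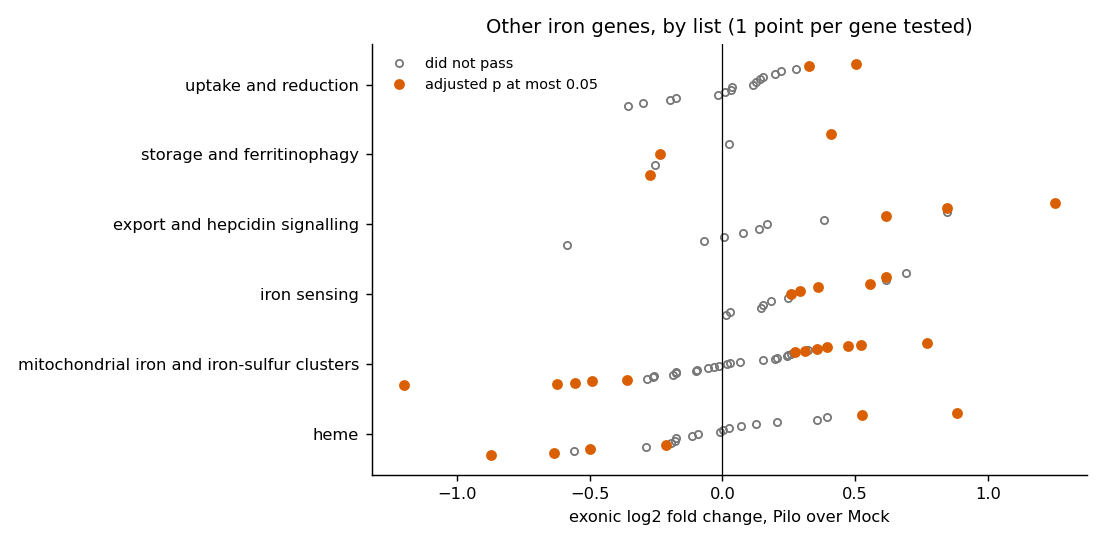
Exonic log2 change of Pilo over Mock (horizontal axis) of the tested genes in each of the 6 iron lists, 1 point per gene, with called genes marked. Points lie on both sides of 0 in most lists. The sensing list has 5 called genes above 0 and none below, beside 15.6% and 16.2% of all genes.

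The genes most like Slc40a1 over the 8 libraries, by Pearson r of exonic log2 CPM among 12863 genes, were Bbs9 (0.995), Atl3 (0.992), Rnf141 (0.992), Zfp358 (0.990) and Fam198b (0.989). By r of the deviations from the group means they were Zkscan7 (0.987), Dok6 (0.984), Atl3 (0.976), Bbs9 (0.975) and Eng (0.972). The points share the libraries and their 2 groups, so these values only describe the pattern. Among the members, the deviations of Ftl1 (r = 0.95) and Fth1 (r = 0.83) ran with those of Slc40a1, and for the other 5 r was between -0.37 and -0.03. Pilo replicate 3 had the highest Pilo value in all 3 genes.

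Pilo replicate 3 also stood apart in markers of other cells. Its summed endothelial and pericyte markers were 90.5 CPM against 19.8 to 29.4 CPM in the other Pilo libraries and 17.3 to 36.2 CPM in Mock. Its oligodendrocyte markers summed to 784 CPM against 437 to 572 CPM in the other Pilo libraries and 343 to 472 CPM in Mock. The part of these cells in the levels of Fth1 and Ftl1 was not tested, and the Ftl1 change without that library was 0.30.

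The marker sums also differed between the groups. The summed excitatory, inhibitory, oligodendrocyte, oligodendrocyte precursor and astrocyte markers were higher in Pilo in all 4 same-numbered pairs, and the microglia, endothelial and choroid plexus sums in 3 of 4. Astrocyte markers, led by Slc1a2, summed to 890, 798, 1178 and 1189 CPM in Mock replicates 1 to 4. In Pilo they summed to 1184, 941, 1418 and 1456 CPM. Such sums mostly follow their most abundant genes. Slc1a2 alone had mean levels of 766 CPM in Mock and 952 CPM in Pilo, of mean astrocyte sums of 1014 and 1250 CPM. Among excitatory markers the mean of Camk2a was higher in Pilo (1325 and 1520 CPM), while that of Slc17a7 was lower (973 and 890 CPM).

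Without the block 4 of 10 excitatory, 3 of 10 inhibitory, 1 of 10 oligodendrocyte (Mbp, 0.64, adjusted p 0.00591 in edgeR) and 1 of 6 precursor markers rose, none of the 8 astrocyte, 10 microglia, 8 endothelial and pericyte or 4 choroid plexus markers was called, and none fell, beside 15.6% and 16.2% of all genes. With the block 6 excitatory, 9 inhibitory, 7 oligodendrocyte, 3 precursor, 5 astrocyte, 3 endothelial and pericyte and 0 microglia and choroid plexus markers were called higher, and 1 excitatory and 1 precursor marker lower, beside 23.8% and 23.2% of all genes. The part of these cells in the changes of the members was not tested. The summed microglia markers were 42.3 to 55.3 CPM in Mock and 42.6 to 58.3 CPM in Pilo.

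**Figure D5:**
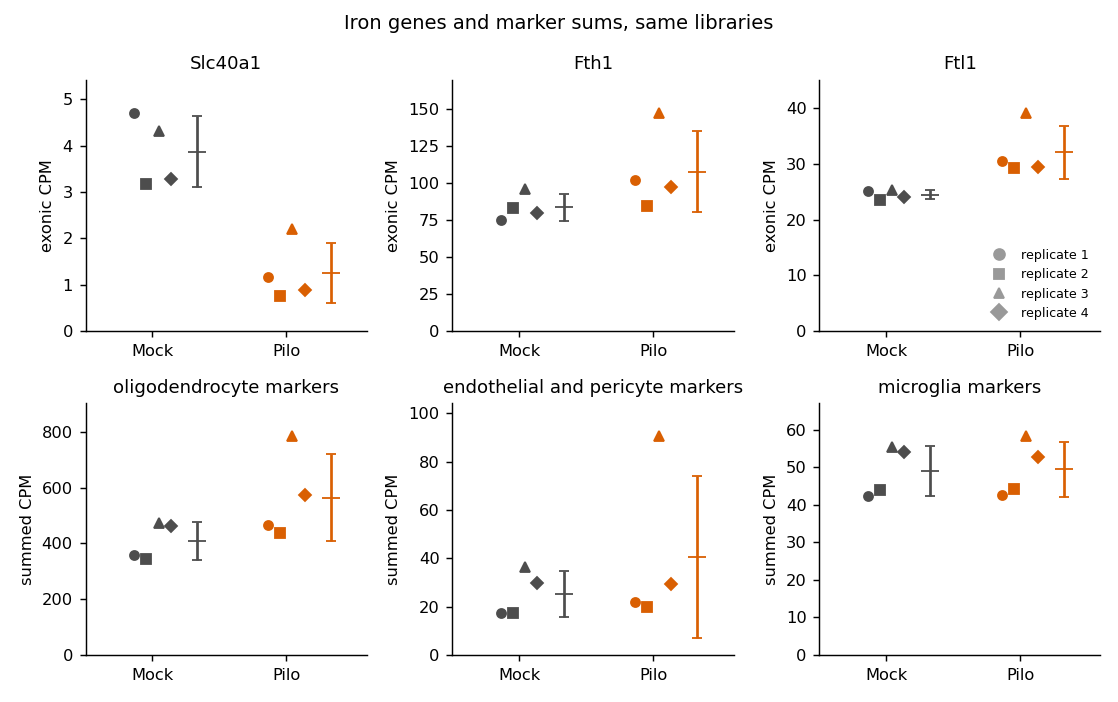
Exonic CPM of Slc40a1, Fth1 and Ftl1 (top) and summed CPM of the oligodendrocyte, endothelial and pericyte, and microglia markers (bottom) in each Mock and Pilo library, with symbols for the replicate number and mean and SD beside the points. Pilo replicate 3, the triangle, is the highest Pilo library in all 6 panels.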

How the data were processed

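The deposited files hold raw read counts per gene, which the authors made with tools the submitters' processing notes list without roles: HTSeq 0.11.2, STAR 2.7.1a, Trimmomatic 0.39, edgeR and R 4.1.1, on mm10 (GRCm38). How exonic reads were divided from intronic ones, and the strand setting, are not given here in any source. A symbol was matched for 55230 of 55471 Ensembl genes (exonic table) and 18507 of 18513 Entrez genes (second table). Total counts per library limit precision and are given with the data.

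Genes were tested in edgeR 4.0.16 (R 4.3.3): quasi-likelihood F-test, robust, TMM, filterByExpr with a minimum count of 10, Benjamini-Hochberg at 0.05 over all genes. The exonic against intronic change was the interaction of region and treatment with sample as a term and a scaling factor per region. The script was tested on simulated data. Libraries within a group were not repeats of each other (chi-square over degrees of freedom 10.2 to 34.2), so all 8 were used.

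Same-numbered libraries of Mock and Pilo deviated together in the exonic table (r = 0.372, 0.380, 0.401 and 0.377, over the limit of 0.1), so the titles' numbers were taken as pairs. The main tests and the exact permutation test of the intronic share did not use these pairs. The block was fitted as an alternative, with DESeq2 1.42.0, other scalings and filters, summed regions and each library left out.

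The members and lists were chosen with earlier results of these data known. Named list genes were up to 4 per list with the smallest p past the exonic test, and genes past the exonic against intronic test. Others were named after their values were seen: Trf, Heph, Hamp, Slc25a28 and Hmox1. The 5 genes most like Slc40a1 needed a mean count of 50, with a prior count of 2. Older symbols of the tables were used for Trf and Skp1a. Some list genes that the rule takes are not reported here by name.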

Additional observations from a re-analysis of the deposited data

Results flagged for a closer look

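In the 60 sets of 4 libraries checked, 2 held a value far from the rest by Dixon's ratio of gap to range, and chance alone gives about 1 in 20. The exonic level of Ftl1 in Pilo replicate 3 was 39.2 CPM, while the other Pilo libraries lay at 29.3 to 30.5 CPM (ratio 0.882). The same library had the highest Fth1 and Slc40a1 levels of its group and the highest endothelial and oligodendrocyte marker sums, and the part of these was not tested. The intronic level of Aco1 in Pilo replicate 1 was 64.9 CPM, with the other Pilo libraries at 50.6 to 52.9 CPM (ratio 0.840).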

How the results depend on the processing

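With the replicate block the genes called higher numbered 4572 in the exonic table and 3572 in the exonic columns of the second table, and the iron lists had 34 higher and 20 lower. The block brought the exonic changes of Slc11a2 (-0.19), Tfrc (0.25), Fth1 (0.34) and Aco1 (-0.20) past the test, those of the second table (-0.21, 0.22, 0.32 and -0.23) and the intronic change of Tfrc (0.24). It ended the exonic against intronic call of Slc11a2 (-0.24) and changed no other call of a member. DESeq2 called Tfrc (0.27) and Fth1 (0.38). Without the filter Tfrc passed (0.25). With exonic and intronic counts summed Tfrc (0.30), Fth1 (0.45) and Aco1 (-0.28) passed. A single scaling factor per library gave 5822 genes above and 406 below, turned the difference of Slc11a2 (0.0067), Tfrc (0.23), Ftl1 (0.15), Ireb2 (0.12) and App (0.0050), and called Aco1 (0.34), while the median of all genes moved to 0.26. Shares from CPM turned the intronic share difference of Slc11a2 (4.17 points), Tfrc (0.298), Ftl1 (1.48) and Ireb2 (2.23). Leaving out each library gave exonic changes of -0.24 to -0.13 for Slc11a2, 0.17 to 0.35 for Tfrc, 0.19 to 0.47 for Fth1 and -0.27 to -0.14 for Aco1. In the second table these were -0.27 to -0.16, 0.14 to 0.31, 0.15 to 0.44 and -0.30 to -0.18, with 0.22 to 0.41 for Ftl1. The intronic change of Aco1 was -0.41 to -0.27, and 7 to 13 list genes were lower. The direction of values near 0 turned without some libraries: -0.11 to 0.036 for Slc25a37 exonic, -0.034 to 0.068 for Slc11a2 intronic, -0.074 to 0.023 for the Tfrc difference and -0.522 to 0.482 points for the Slc11a2 share. With 3 against 4 libraries no intronic share tested passed the exact permutation test after adjustment (lowest adjusted p 0.0571). With so few libraries a gene that separated the groups fully could not pass alone, so this decides nothing. The cause of these dependences was not tested. Of all values and counts, 505 under whole alternatives and 749 without a library kept direction and side of the threshold. For counts this meant staying within 1.5 times. In the same order, 9 and 11 changed direction, 18 and 56 lost a call and 17 and 10 gained a call. Counts that moved further than 1.5 times numbered 17 and 14. The counts of Slc40a1, 4 to 16 intronic reads per Pilo library, limit its precision.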
